A study of Mus musculus with 4 samples.

Results

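Genes of the smooth muscle contractile apparatus were examined in mouse molar mesenchyme taken on embryonic day 14. The 10 genes, Acta2, Actg2, Tagln, Tagln2, Myl9, Cnn1, Cnn2, Tpm1, Tpm2 and Myh11, were taken by name from 22072 genes in the deposited tables, and all 10 were found. They were selected on FPKM levels and genotype differences of these same 4 libraries, among them the Acta2 values below, so their differences are a description with no test. The 4 groups were Msx1-/- upper (maxillary) molars, Msx1+/- upper molars, Msx1-/- lower (mandibular) molars and Msx1+/- lower molars, each with 1 library. Msx1 is a homeobox gene of the mesenchyme under the tooth epithelium. The labels call the Msx1+/- embryos the controls, but the title of the series has wild type, and all embryos had a mixed strain background. The labels name no mutant allele, so, as labelled, all groups carry at least 1 mutant copy of Msx1 of unstated design. Laser capture took the mesenchyme out of frozen sections of heads, and tissue from 3 pairs of control and mutant samples was pooled before RNA extraction.

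Smooth muscle contracts when thick filaments of a smooth muscle myosin pull on thin filaments of actin. The myosin consists of heavy chains (Myh11) and light chains (Myl9 is a regulatory chain whose phosphorylation switches contraction on), and the thin filament carries the actins Acta2 and Actg2 together with tropomyosins (Tpm1, Tpm2), calponins (Cnn1, Cnn2) and transgelins (Tagln, Tagln2). Several of these genes are also used outside smooth muscle: Tagln2, Cnn2, Myl9 and Tpm1 are made in many motile and growing cells, whereas Myh11, Cnn1 and Actg2 are more restricted to smooth muscle. Transcription of many of the genes is driven by serum response factor (Srf) bound to a CArG box, with cofactors of the myocardin family.

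Levels are FPKM, fragments scaled to transcript length and library size as deposited by the authors, and differences are on the log2(FPKM + 1) scale, on which a low gene shows less than its true fold. The words higher, lower and counted are kept for differences of at least 1 in size. A mean of 1 FPKM or more was required, which kept 10536 genes and 7 of the 10 contractile genes. No group has a second library, so no difference has a replicate check, and the genotype and jaw differences reuse the same 4 libraries. The share of all genes with both libraries of a genotype, or of a jaw, above or below the others was not computed. Such orders are descriptions only. In bulk tissue fewer cells of a type and less RNA per cell cannot be told apart. Summed coverage over annotated transcripts was 264 to 410 megabases per library. The Msx1-/- lower library had smaller values over most genes. The median difference of all genes compared was -0.03 between genotypes in upper molars and -0.39 in lower molars. Between jaws (upper minus lower) the median difference was 0.27 in Msx1-/- and -0.08 in Msx1+/- molars. Values relative to these medians or after rescaling are given beside the contractile genes. For the genotype differences of other genes they are given where rescaling ends or adds a call. The molar mesenchyme marker Barx1 was at 86.4 FPKM in Msx1-/- upper, 104 FPKM in Msx1+/- upper, 83.4 FPKM in Msx1-/- lower and 74.5 FPKM in Msx1+/- lower molars.

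The promoters of the genes were read first, because a CArG box is the element that links many smooth muscle genes. RefSeq promoter sequences of build GRCm38.p6, each with 250 bases before and 50 bases after an annotated start, were matched for 7 of the 10 genes: Acta2, Tagln2, Myl9, Cnn1, Cnn2, Tpm1 and Tpm2. A CArG box with a core of 6 A or T bases was present in 2 of them, Myl9 and Cnn2, against 1.63% of all 32851 promoters. The pattern is its own reverse complement, so 1 search covers both strands. A CArG box with exactly 1 G or C in the core was present in 2, Acta2 and Myl9, against 8.5% of all promoters. Such imperfect boxes are known from the Acta2 promoter, where Srf binds them. The promoters of Acta2, Myl9, Cnn2 and Tagln2 are shown 5′ to 3′ because the first 3 hold the matches and Tagln2 was lower in Msx1-/- molars of both jaws, with matches to either form in capitals.
Acta2, chr19:34255324-34255623, minus strand: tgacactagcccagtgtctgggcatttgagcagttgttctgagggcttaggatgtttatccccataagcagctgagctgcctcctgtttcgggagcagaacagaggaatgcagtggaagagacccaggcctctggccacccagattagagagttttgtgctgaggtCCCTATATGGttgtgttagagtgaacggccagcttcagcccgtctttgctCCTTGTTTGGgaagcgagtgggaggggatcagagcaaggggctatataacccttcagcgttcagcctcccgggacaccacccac
Myl9, chr2:156775214-156775513, plus strand: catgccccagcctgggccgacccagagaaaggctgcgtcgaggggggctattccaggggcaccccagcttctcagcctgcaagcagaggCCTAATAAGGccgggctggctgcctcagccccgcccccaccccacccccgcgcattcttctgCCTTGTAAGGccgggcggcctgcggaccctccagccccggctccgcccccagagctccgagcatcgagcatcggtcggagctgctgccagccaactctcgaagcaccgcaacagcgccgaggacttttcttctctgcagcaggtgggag
Cnn2, chr10:79988350-79988649, plus strand: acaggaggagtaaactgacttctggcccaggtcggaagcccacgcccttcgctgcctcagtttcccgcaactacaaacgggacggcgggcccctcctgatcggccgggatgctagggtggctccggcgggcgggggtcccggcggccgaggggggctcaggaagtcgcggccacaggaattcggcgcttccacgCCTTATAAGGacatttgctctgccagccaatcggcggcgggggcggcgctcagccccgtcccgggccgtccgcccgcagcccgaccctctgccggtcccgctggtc
Tagln2, chr1:172499996-172500295, plus strand: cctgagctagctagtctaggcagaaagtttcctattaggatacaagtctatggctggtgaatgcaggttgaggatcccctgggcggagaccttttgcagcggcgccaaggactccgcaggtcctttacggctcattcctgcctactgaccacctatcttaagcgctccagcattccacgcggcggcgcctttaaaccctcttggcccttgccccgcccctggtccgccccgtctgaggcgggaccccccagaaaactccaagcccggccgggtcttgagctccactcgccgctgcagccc
In Acta2 the matches CCCTATATGG and CCTTGTTTGG began 84 and 34 bases before the annotated start. In Myl9 they were CCTAATAAGG at 161 bases and CCTTGTAAGG at 99 bases, and in Cnn2 the match was CCTTATAAGG at 56 bases. No match in the other windows says only that these letters are not there.

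**Figure D1:**
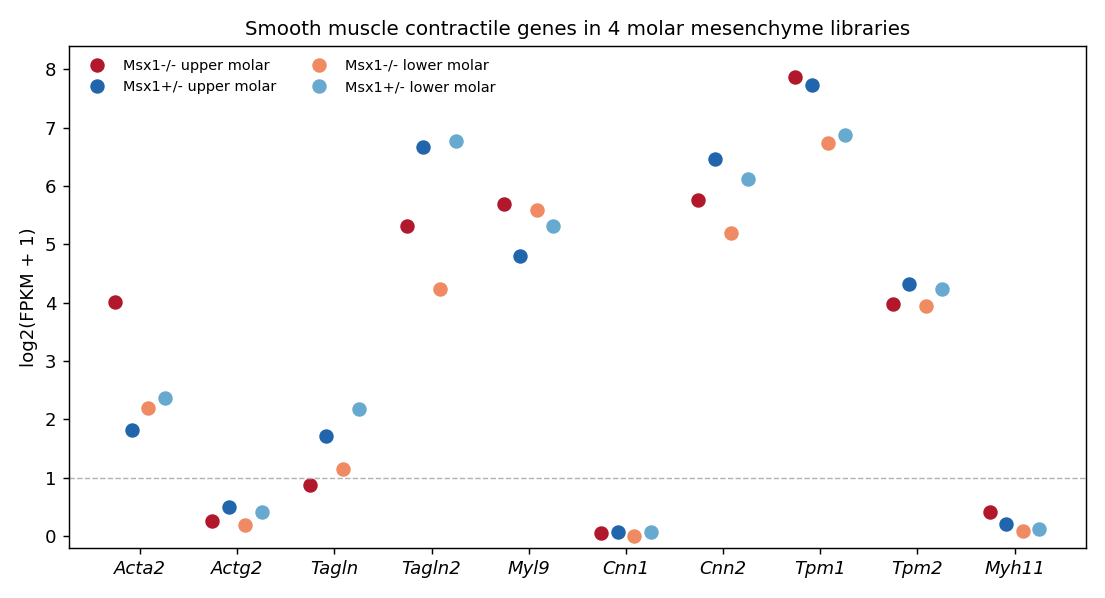
Level of each contractile gene as log2(FPKM + 1) on the vertical axis, with 1 point for each of the 4 libraries and the dashed line at 1 FPKM. Acta2 stood apart in Msx1-/- upper molars alone (15.2 FPKM), Tagln2 and Cnn2 were below the Msx1+/- libraries in both Msx1-/- libraries, and Actg2, Cnn1 and Myh11 stayed below 1 FPKM everywhere.

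The smooth muscle actin gene Acta2 (chromosome 19, 34315581 to 34329826 in mm9, the build of all positions from the tables) was high in 1 library alone. It was at 15.2 FPKM in Msx1-/- upper molars, against 2.53 FPKM in Msx1+/- upper molars. In lower molars it was at 3.57 FPKM in Msx1-/- and 4.18 FPKM in Msx1+/- molars. Msx1-/- upper molars stood 6.02-fold above Msx1+/- upper molars in FPKM, while the other 3 libraries lay close together. The log2 difference was 2.20 in upper molars and -0.18 in lower molars, and the lower-jaw value turned to 0.16, 0.23 and 0.21 after rescaling by median of ratios, to one upper quartile and to one total. The upper-jaw value was between 1.43 and 2.54 under all settings tried. Aligned sequence on Acta2, as coverage times length, was 29441 bases in Msx1-/- upper and 4710 bases in Msx1+/- upper molars, and 5872 and 6042 bases in Msx1-/- and Msx1+/- lower molars.

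Acta2 was a small part of all actin RNA in every library. Of the summed FPKM of 6 actin genes, a share that no library scaling can alter, it made up 1.21% in Msx1-/- upper, 0.167% in Msx1+/- upper, 0.489% in Msx1-/- lower and 0.286% in Msx1+/- lower molars. The share was larger in the Msx1-/- library of either jaw. In lower molars the cytoplasmic actin gene Actb was itself at 490 FPKM in Msx1-/- against 1086 FPKM in Msx1+/- molars, a change in the denominator. The actins have near-identical coding sequences, so reads of an abundant actin can be placed on a rare one. The striated muscle actin genes fell below the mean of 1 FPKM and were not compared. In upper molars the skeletal actin gene Acta1 was at 0.823 FPKM in Msx1-/- and 0.87 FPKM in Msx1+/- molars. There the cardiac actin gene Actc1 was at 0.508 FPKM and 0.341 FPKM in Msx1-/- and Msx1+/- molars. In lower molars Acta1 was at 0.307 FPKM in Msx1-/- against 1.13 FPKM in Msx1+/- molars. Actc1 was there at 0.52 FPKM and 0.809 FPKM in Msx1-/- and Msx1+/- molars. The part of misplaced reads in these values was not tested.

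The second smooth muscle actin gene, Actg2 (chromosome 6, 83462903 to 83486245), is known from the gut and other visceral smooth muscle. It was at 0.196 FPKM in Msx1-/- upper against 0.412 FPKM in Msx1+/- upper molars, and at 0.145 FPKM in Msx1-/- lower against 0.331 FPKM in Msx1+/- lower molars. These levels rested on 176 to 567 bases of aligned sequence per library, so they lie near the limit of detection.

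The myosin genes differed widely in level. The regulatory light chain gene Myl9 (chromosome 2, 156601200 to 156607393) was abundant, at 50.7 FPKM in Msx1-/- upper against 26.9 FPKM in Msx1+/- upper molars, and 47.3 FPKM in Msx1-/- lower against 38.7 FPKM in Msx1+/- lower molars. Both Msx1-/- libraries lay above both Msx1+/- libraries, by log2 differences of 0.89 and 0.28, which were not counted. Relative to the median of all genes the differences were 0.92 and 0.67. Myl9 made up 51.6% of Myl9 and Myl12b together in Msx1-/- upper against 38.7% in Msx1+/- upper molars. The share was 69.8% in Msx1-/- lower against 45.7% in Msx1+/- lower molars. Myl12b, which encodes a non-muscle regulatory light chain of similar sequence, was itself at 47.6 FPKM in Msx1-/- upper and 42.6 FPKM in Msx1+/- upper molars, and at 20.5 FPKM in Msx1-/- lower against 46 FPKM in Msx1+/- lower molars, a change in the denominator.

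The smooth muscle myosin heavy chain gene Myh11 (chromosome 16, 14194620 to 14291501) was almost silent. It was at 0.325 FPKM in Msx1-/- upper against 0.159 FPKM in Msx1+/- upper molars, and at 0.0646 FPKM in Msx1-/- lower against 0.0832 FPKM in Msx1+/- lower molars. Its transcript is long, so even these levels held 2328 bases of aligned sequence in Msx1-/- upper, 1096 bases in Msx1+/- upper, 394 bases in Msx1-/- lower and 445 bases in Msx1+/- lower molars. Myh11 had its highest value in the same library as Acta2. It gave 0.965% of the FPKM of the 4 smooth and non-muscle type II heavy chains there, and 0.241 to 0.444% in the other libraries. The non-muscle heavy chain genes Myh10 and Myh9 made up nearly all the rest, and the third, Myh14, gave 0.0454 to 0.201%.

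The transgelins bind actin, and both had their lowest values in the Msx1-/- libraries. Tagln2 (chromosome 1, 174430377 to 174437506), the form made in many cell types, was at 38.7 FPKM in Msx1-/- upper against 101 FPKM in Msx1+/- upper molars. In lower molars it was at 17.8 FPKM in Msx1-/- against 108 FPKM in Msx1+/- molars. The 2 Msx1+/- libraries were nearly equal and both Msx1-/- libraries were far below them. The log2 differences were -1.36 and -2.53, and with rescaling they were -1.25 to -1.35 and -2.03 to -2.12. Tagln2 was counted as lower in both jaws under every setting tried.

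The smooth muscle transgelin gene Tagln (chromosome 9, 45737711 to 45744141), also called SM22, was much scarcer, at 0.827 FPKM in Msx1-/- upper against 2.29 FPKM in Msx1+/- upper molars. In lower molars it was at 1.21 FPKM in Msx1-/- against 3.51 FPKM in Msx1+/- molars. Both Msx1-/- libraries again lay below both Msx1+/- libraries, with FPKM ratios of 0.362 and 0.344. The log2 differences were -0.85 and -1.03, so Tagln was counted in lower molars, but not there after any of the 3 rescalings (-0.70 to -0.76) or with a pseudocount of 5 (-0.46). With a pseudocount of 0.1 it was counted in upper molars as well, at -1.36. Acta2 and Tagln, which smooth muscle cells make together, thus had differences of opposite sign in upper molars. In the tables the Tagln locus overlaps Pcsk7, and no source states a stranded library. Pcsk7 was at 1.98 FPKM in Msx1-/- upper, 3.45 FPKM in Msx1+/- upper, 2.19 FPKM in Msx1-/- lower and 2.71 FPKM in Msx1+/- lower molars, and its part in the Tagln values was not tested. No other contractile gene overlapped a second gene.

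Within the transgelin family Tagln2 held most of the FPKM in each library, 95.2% in Msx1-/- upper, 86.6% in Msx1+/- upper, 89.4% in Msx1-/- lower and 95% in Msx1+/- lower molars. The third gene, the neuronal transgelin Tagln3, was at 1.12 FPKM in Msx1-/- upper against 13.3 FPKM in Msx1+/- upper molars, and at 0.895 FPKM in Msx1-/- lower against 2.11 FPKM in Msx1+/- lower molars. The summed family was at 40.7 FPKM in Msx1-/- upper against 116 FPKM in Msx1+/- upper molars, and at 19.9 FPKM in Msx1-/- lower against 113 FPKM in Msx1+/- lower molars.

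The calponins restrain actomyosin and stabilise actin filaments. Cnn2 (chromosome 10, 79451345 to 79458145), the widely expressed form, was at 53.1 FPKM in Msx1-/- upper against 87.6 FPKM in Msx1+/- upper molars, and at 35.5 FPKM in Msx1-/- lower against 68.4 FPKM in Msx1+/- lower molars. Both Msx1-/- libraries were the lowest, but the differences of -0.71 and -0.93 were not counted, and after rescaling the lower-jaw value was -0.42 to -0.51. Its paralog Cnn3 was at 43.3 FPKM in Msx1-/- upper against 79.9 FPKM in Msx1+/- upper molars, and at 26.2 FPKM in Msx1-/- lower against 74.6 FPKM in Msx1+/- lower molars. Cnn2 was 55.1% of the 3 calponins in Msx1-/- upper against 52.3% in Msx1+/- upper molars, and 57.5% in Msx1-/- lower against 47.8% in Msx1+/- lower molars. Cnn1 (chromosome 9, 21903697 to 21913665), the calponin of differentiated smooth muscle, was at 0.0371 FPKM in Msx1-/- upper and 0.0526 FPKM in Msx1+/- upper molars, listed at 0 in Msx1-/- lower and at 0.0487 FPKM in Msx1+/- lower molars. These values rested on 0 to 109 bases of aligned sequence, and no difference was detectable at this depth.

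**Figure D2:**
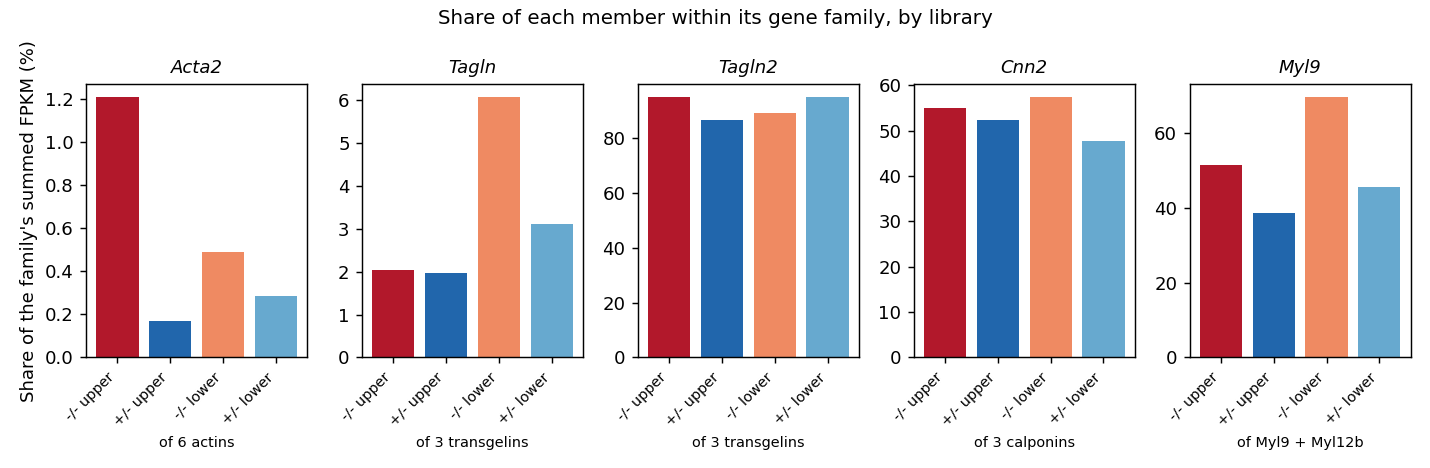
Share of a contractile gene in the summed FPKM of its own gene family, in percent, with 1 bar per library and a separate scale in each panel. For Myl9 the sum holds Myl9 and Myl12b only, since Myl12a was not found by name. The Acta2 share was largest in Msx1-/- upper molars (1.21%), and the Myl9 share was above that of the Msx1+/- library in both jaws (51.6% against 38.7% in upper and 69.8% against 45.7% in lower molars).

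In all, 1 of the 7 contractile genes compared was higher in Msx1-/- than in Msx1+/- upper molars (Acta2) and 1 was lower (Tagln2), where 1.07% of all genes compared were higher and 3.26% lower, 4.33% in all. In lower molars 0 were higher, against a background of 0.873%, and 2 were lower (Tagln and Tagln2), against 9.43%, or 10.3% in either direction. The background in lower molars shifted with scaling, with 92 genes higher and 994 lower on deposited values and 215 higher and 370 lower after median of ratios. The members were picked with these contrasts in view, so nothing is read from the counts. The 7 genes had a median difference of -0.34 in upper molars and -0.29 in lower molars, beside medians of all genes of -0.03 and -0.39.

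**Figure D3:**
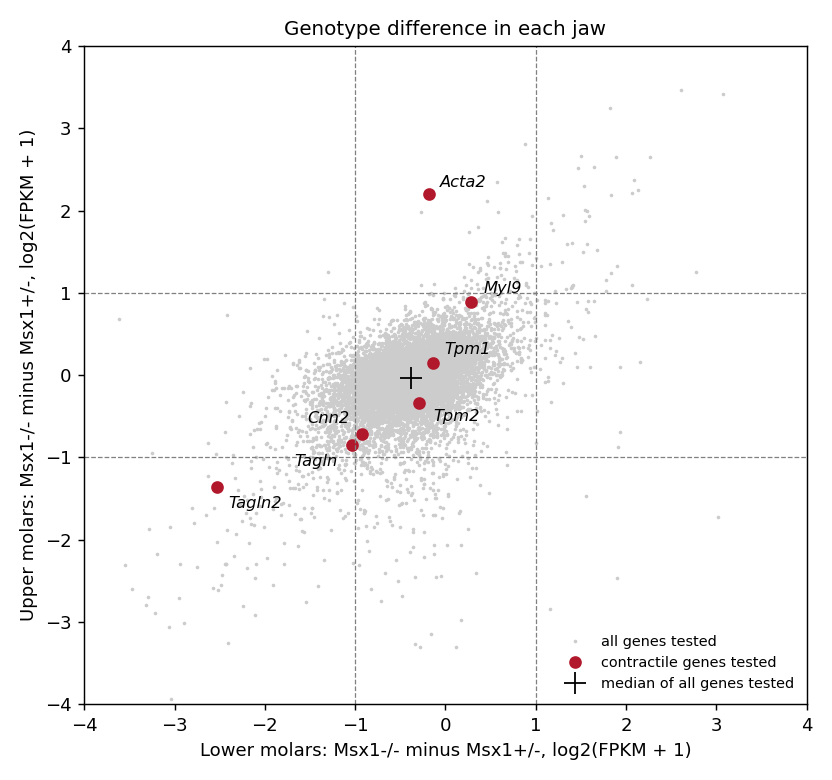
Msx1-/- minus Msx1+/- difference in log2(FPKM + 1), with upper molars on the vertical and lower molars on the horizontal axis; grey points are all 10536 genes compared (10 lie outside the axes), red points are the 7 contractile genes, the cross is the median of all genes and dashed lines mark a difference of 1. Acta2 lies high on the vertical axis near 0 on the horizontal one (2.20 and -0.18), and Tagln2 lies past the threshold on both (-1.36 and -2.53).

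The tropomyosins wind along actin and set which myosins can reach it. Tpm2 (chromosome 4, 43527584 to 43536260) was the steadiest contractile gene above 1 FPKM, at 14.8 FPKM in Msx1-/- upper and 19 FPKM in Msx1+/- upper molars and at 14.4 FPKM in Msx1-/- lower and 17.9 FPKM in Msx1+/- lower molars. Its differences of -0.34 and -0.29 were not counted, and the lower-jaw value was 0.10 to 0.19 after rescaling. Tpm1 (chromosome 9, 66870400 to 66897020) was the most abundant contractile gene in FPKM in all 4 libraries. It was at 233 FPKM in Msx1-/- upper and 211 FPKM in Msx1+/- upper molars, and at 105 FPKM in Msx1-/- lower and 116 FPKM in Msx1+/- lower molars. Its genotype differences were 0.15 and -0.13. Its levels separated by jaw, not by genotype, with both upper libraries above both lower libraries.

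The jaw difference of Tpm1, upper minus lower, was 1.14 in Msx1-/- and 0.86 in Msx1+/- molars, and it was 0.80 to 0.86 and 0.93 to 0.99 after rescaling. Upper over lower molars, 3 of the 7 contractile genes compared were counted as higher in Msx1-/- molars (Acta2, Tagln2 and Tpm1), against 3.22% of all genes, and 0 in Msx1+/- molars, against 1.48%. None was counted as lower in upper molars, where the backgrounds were 0.427% in Msx1-/- and 0.218% in Msx1+/- molars (3.64% and 1.7% in either direction). After median of ratios the background in Msx1-/- molars was 148 genes higher and 96 lower in upper molars, against 339 and 45 on deposited values. After each of the 3 rescalings Acta2 alone was counted in Msx1-/- molars, with 1.57, 1.55 and 1.60 for median of ratios, one upper quartile and one total. Tpm1 also took a larger part of the 4 tropomyosins in upper than in lower molars, 62.2% against 47.3% in Msx1-/- molars and 48% against 32.2% in Msx1+/- molars. The share was larger in the Msx1-/- library of each jaw too. Tpm4, a non-muscle tropomyosin, was at 94.5 FPKM in Msx1-/- upper against 161 FPKM in Msx1+/- upper molars. In lower molars Tpm4 was at 83.1 FPKM in Msx1-/- against 181 FPKM in Msx1+/- molars.

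Tpm1 RNA comes in many forms, and the tables hold 10 RefSeq entries for it. Long forms start at an upstream promoter and take exon 2a or exon 2b, short forms start at an internal promoter, and either kind takes exon 6a or 6b and any of several 3′ ends. Exon 2a is known as the choice of smooth muscle. Each entry was matched by its RefSeq name to its GENCODE transcript to learn which exons it holds. The alternative exons are shown from the GENCODE transcripts of build GRCm38 because they tell the smooth muscle form from the others, with the positions at which the partners of a pair differ in capitals.
Tpm1 exon 2a, chr9:67048124-67048249, minus strand: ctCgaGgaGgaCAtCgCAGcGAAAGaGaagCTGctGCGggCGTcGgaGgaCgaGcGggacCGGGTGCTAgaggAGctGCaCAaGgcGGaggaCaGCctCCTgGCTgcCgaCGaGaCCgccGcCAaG
Tpm1 exon 2b, chr9:67047786-67047911, minus strand: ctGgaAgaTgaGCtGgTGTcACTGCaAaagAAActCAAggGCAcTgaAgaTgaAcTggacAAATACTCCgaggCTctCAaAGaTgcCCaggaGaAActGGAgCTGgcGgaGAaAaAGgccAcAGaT
Tpm1 exon 6a, chr9:67032466-67032541, minus strand: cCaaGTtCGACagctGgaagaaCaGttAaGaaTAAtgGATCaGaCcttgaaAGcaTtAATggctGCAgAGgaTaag
Tpm1 exon 6b, chr9:67031951-67032026, minus strand: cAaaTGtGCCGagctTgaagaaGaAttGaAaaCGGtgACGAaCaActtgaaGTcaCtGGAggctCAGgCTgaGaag
Exons 2a and 2b are of equal length and 47.6% identical position by position, and exons 6a and 6b, also of equal length, are 56.6% identical, so reads inside these exons can be told apart.

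The smooth muscle form with exon 2a was a minor part of Tpm1 in every library. It was estimated at 6.89 FPKM in Msx1-/- upper and 4.99 FPKM in Msx1+/- upper molars, and at 2.14 FPKM in Msx1-/- lower and 1.55 FPKM in Msx1+/- lower molars. That is 2.95%, 2.37%, 2.03% and 1.34% of Tpm1 in the same libraries. Forms with exon 2b were at 212 FPKM in Msx1-/- upper and 191 FPKM in Msx1+/- upper molars, and at 65.6 FPKM in Msx1-/- lower and 84 FPKM in Msx1+/- lower molars.

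The jaws differed in the start site. The 6 entries from the upstream start summed to 219 FPKM in Msx1-/- upper against 67.8 FPKM in Msx1-/- lower molars, and to 196 FPKM in Msx1+/- upper against 85.6 FPKM in Msx1+/- lower molars. The 4 entries from the internal start summed to 14.8 FPKM in Msx1-/- upper against 37.6 FPKM in Msx1-/- lower molars, and to 14.8 FPKM in Msx1+/- upper against 30.1 FPKM in Msx1+/- lower molars. Short forms thus made up 6.32% of Tpm1 in Msx1-/- upper against 35.7% in Msx1-/- lower molars, and 7.03% in Msx1+/- upper against 26% in Msx1+/- lower molars. In both genotypes the upstream class was larger and the internal class smaller in the upper library, an order with no background over all genes beside it. The log2 jaw differences were 1.68 in Msx1-/- and 1.19 in Msx1+/- molars for the upstream start and -1.29 and -0.97 for the internal start, where the Msx1+/- value fell short of the threshold. After rescaling by median of ratios they were 1.36 and 1.28 for the upstream start and -1.60 and -0.88 for the internal start. The pattern was noticed in these data, the split among entries is an estimate by the authors' software, and uneven coverage along transcripts, which can alter it, was not tested.

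The other splits of Tpm1 were by the sixth exon and the 3′ end. Exon 6a was taken by 26.7% in Msx1-/- upper against 20.1% in Msx1+/- upper molars, and by 34.3% in Msx1-/- lower against 29% in Msx1+/- lower molars. Forms with the most downstream 3′ end made up 77.2% in Msx1-/- upper, 78.9% in Msx1+/- upper, 67.7% in Msx1-/- lower and 82.5% in Msx1+/- lower molars. Forms with the most upstream 3′ end made up 22% in Msx1-/- upper and 20.8% in Msx1+/- upper molars, and 31.8% in Msx1-/- lower against 16.9% in Msx1+/- lower molars. Their genotype difference in lower molars was 0.75, and 1.15 after median of ratios, which passes the threshold. Single entries were less steady than these sums. The long form with exons 2b and 6b and the most downstream end was at 116 FPKM in Msx1-/- upper, 120 FPKM in Msx1+/- upper, 4.09 FPKM in Msx1-/- lower and 49.9 FPKM in Msx1+/- lower molars. The long form with exons 2b and 6b and the most upstream end was at 32.8 FPKM in Msx1-/- upper, 29.4 FPKM in Msx1+/- upper, 29.7 FPKM in Msx1-/- lower and 1.44 FPKM in Msx1+/- lower molars. Each was low in a different lower-jaw library.

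**Figure D4:**
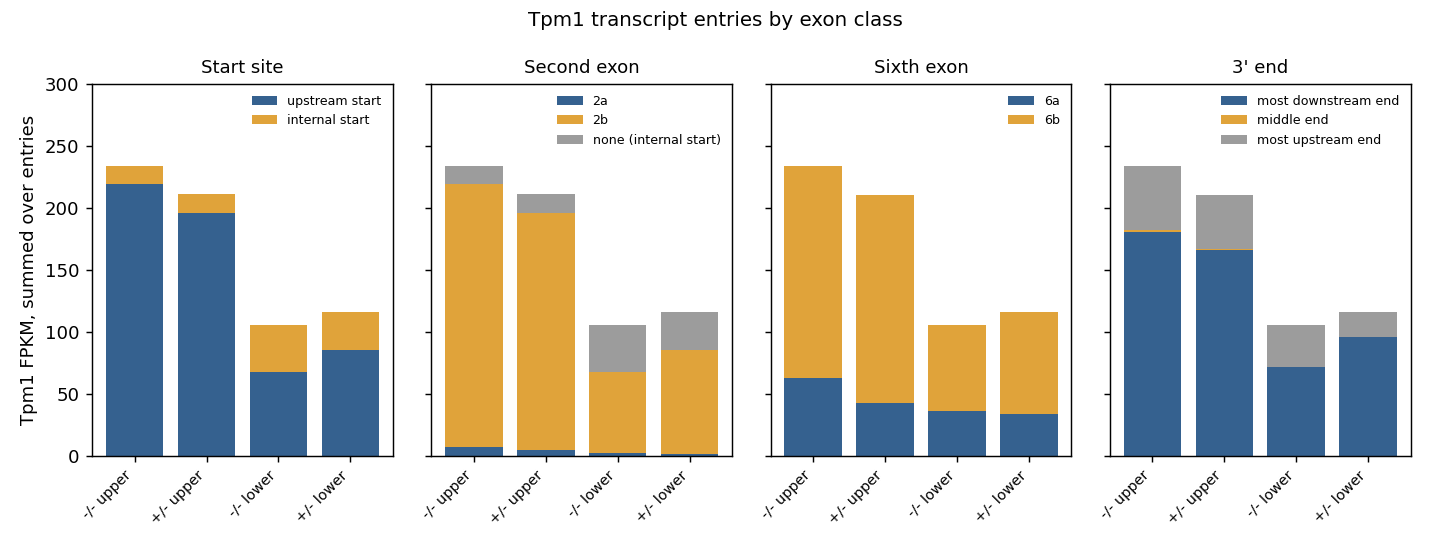
Tpm1 FPKM summed over its 10 transcript entries, stacked by start site, second exon, sixth exon and 3′ end, with 1 bar for each library on a common axis. The internal start gave 14.8 FPKM in either upper library and 37.6 and 30.1 FPKM in Msx1-/- and Msx1+/- lower molars, and exon 2a was a thin layer in each bar.

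Further genes of the contractile apparatus were taken from a list of 20, of which 10 reached a mean of 1 FPKM. In upper molars 0 were higher and 1 was lower in Msx1-/- mesenchyme, where 1.07% of all genes were higher and 3.26% lower. In lower molars 0 were counted, against 10.3% of all genes. The medians were -0.15 and -0.42, beside medians of all genes of -0.03 and -0.39. The lower gene was Mylk, the kinase that phosphorylates the regulatory light chain, at 3.16 FPKM in Msx1-/- upper against 11.3 FPKM in Msx1+/- upper molars and at 3.80 FPKM in Msx1-/- lower against 5.76 FPKM in Msx1+/- lower molars. Itga8, an integrin subunit of contractile cells, was at 10 FPKM in Msx1-/- upper against 4.69 FPKM in Msx1+/- upper molars and at 4.6 FPKM in Msx1-/- lower against 2.93 FPKM in Msx1+/- lower molars. Its upper-jaw difference of 0.96 became 1.04 when scaled to one upper quartile and 1.02 when scaled to one total. Synpo2, an actin-bundling protein gene, had differences of 0.91 and 0.51 in upper and lower molars, and Pdlim7, which links kinases to actin, of -0.66 and -0.67. The thin-filament gene Cald1, abundant at 71 FPKM in Msx1-/- upper and 59.3 FPKM in Msx1+/- upper molars, was at 95.3 FPKM in Msx1-/- lower against 63.2 FPKM in Msx1+/- lower molars and was counted as higher there after each rescaling, at 1.07 when scaled to one total. Of the list, 8 genes were below 1 FPKM in every library and others were well above it. The smoothelin gene Smtn, a marker of contractile smooth muscle, was at 7.3 FPKM in Msx1-/- upper and 9.51 FPKM in Msx1+/- upper molars, and at 4.04 FPKM in Msx1-/- lower and 7.39 FPKM in Msx1+/- lower molars. Among those below 1 FPKM, the intermediate filament gene Des was at 0.184 to 0.437 FPKM over the libraries, Lmod1 at 0 to 0.159 FPKM and the potassium channel subunit gene Kcnmb1 at 0 to 0.0497 FPKM.

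Of 14 regulators of smooth muscle genes, 12 reached a mean of 1 FPKM. None was counted in upper molars (median -0.24), against 4.33% of all genes. In lower molars 1 was lower (median -0.26), against 9.43%. The medians of all genes were -0.03 and -0.39. That gene was Foxf1a, a forkhead factor of visceral and oral mesenchyme, at 27.5 FPKM in Msx1-/- upper against 44.8 FPKM in Msx1+/- upper molars and at 9.44 FPKM in Msx1-/- lower against 55.9 FPKM in Msx1+/- lower molars, with a lower-jaw difference of -2.45, or -1.96 to -2.05 after rescaling. Srf differed little, at 6.70 FPKM in Msx1-/- upper and 7.87 FPKM in Msx1+/- upper molars and at 6.86 FPKM in Msx1-/- lower and 8.37 FPKM in Msx1+/- lower molars. Its broadly expressed cofactor genes Mkl1 and Mkl2 were detected, with Mkl1 at 4.54 FPKM in Msx1-/- upper, 7.75 FPKM in Msx1+/- upper, 4.26 FPKM in Msx1-/- lower and 3.88 FPKM in Msx1+/- lower molars. Mkl2 was at 8.34, 8.52, 6.31 and 7.82 FPKM in that order. Myocd, the cofactor gene of cardiac and smooth muscle, was at 0 to 0.102 FPKM and Gata6 at 0 to 0.189 FPKM.

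None of the ternary complex factor genes, whose products compete with the myocardin family for Srf, was counted. Elk3 had differences of -0.60 in upper molars and -0.94 in lower molars, and Elk1 of -0.25 and -0.64. Elk4 fell just short of the threshold in lower molars, at 3.37 FPKM in Msx1-/- against 7.72 FPKM in Msx1+/- molars, with an upper-jaw difference of -0.63. After rescaling the lower-jaw values of the 3 genes were between -0.22 and -0.65. Klf4, a repressor of smooth muscle genes, was at 4.62 FPKM in Msx1-/- upper against 2.63 FPKM in Msx1+/- upper molars and at 5.81 FPKM in Msx1-/- lower against 3.19 FPKM in Msx1+/- lower molars. Its differences were 0.63 and 0.70, and the lower-jaw value was 1.05 to 1.13 after rescaling. The Mef2 factor genes differed by 0.71 or less in size, with Mef2a at -0.23 and -0.71, Mef2c at 0.39 and -0.15 and Mef2d at -0.53 and -0.08. Foxo4, a forkhead repressor of myocardin activity, differed by 0.16 and 0.14.

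From a list of mostly non-muscle relatives of the contractile genes, 10 were compared. In upper molars 1 was lower (Tagln3, at -2.75), where 3.26% of all genes were. In lower molars 6 were lower, where 9.43% of all genes were. The medians of the 10 were -0.39 in upper and -1.07 in lower molars, beside medians of all genes of -0.03 and -0.39. The 6 were Actb, Myh9, Myl12b, Tpm3, Tpm4 and Cnn3, and after rescaling by median of ratios Cnn3 alone was counted in lower molars (-1.06, list median -0.67), while scaled to one upper quartile or one total none was. The lower-jaw differences of Myl6 and Myh10 turned positive under all 3 rescalings (0.29 and 0.10 by median of ratios). Of the 14 cytoskeletal and matricellular Srf targets compared, 0 were counted in upper molars, against 4.33% of all genes. In lower molars 5 were lower, against 9.43%. The medians of these targets were -0.32 and -0.56, beside medians of all genes of -0.03 and -0.39. The 5 were Vcl, Actn1, Pfn1, Cfl1 and Cyr61. The actin monomer binder Pfn1 was at 155 FPKM in Msx1-/- upper against 269 FPKM in Msx1+/- upper molars and at 90.6 FPKM in Msx1-/- lower against 253 FPKM in Msx1+/- lower molars. The difference of the adhesion gene Vcl was -0.60 and -1.25, that of the actin-severing gene Cfl1 -0.36 and -1.36 and that of the matricellular gene Cyr61 -0.36 and -1.08. Rescaled by median of ratios, Pfn1 alone was counted in lower molars, at -1.05, and by the other rescalings none was. In upper molars Fhl1, at 0.97, was counted as higher when scaled to one upper quartile (1.06) or one total (1.03).

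**Figure D5:**
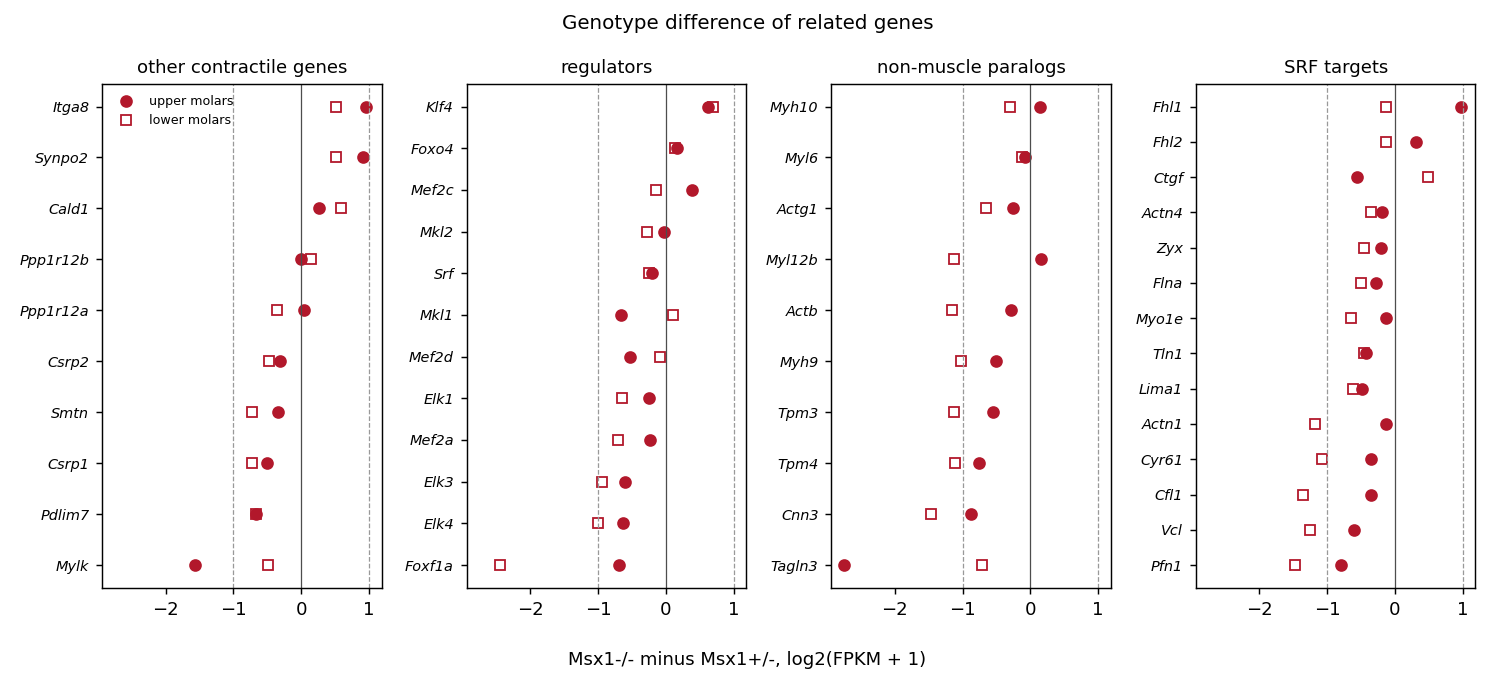
Msx1-/- minus Msx1+/- difference in log2(FPKM + 1) on the horizontal axis for the genes of 4 lists that were compared, with filled circles for upper and open squares for lower molars and dashed lines at a difference of 1. Most genes of the paralog list, not all of them non-muscle, and most Srf targets lie further left in lower than in upper molars. In lower molars the median of all genes was -0.39.

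Markers of other cells that captured tissue could hold were measured beside these genes. Pericytes surround small vessels and can express Acta2, and their 7 markers with a valid estimate summed to 24.9 FPKM in Msx1-/- upper against 39.2 FPKM in Msx1+/- upper molars and to 20.5 FPKM in Msx1-/- lower against 42.1 FPKM in Msx1+/- lower molars. The marker Pdgfrb had a failed estimate and was left out. None of the 5 compared was counted in upper molars, against 4.33% of all genes. Rgs5 and Mcam were lower in lower molars, where 9.43% of all genes were. After rescaling Rgs5 was still counted, at -1.54 to -1.61, and Mcam was not, at -0.86 to -0.94. Of the 5, 4 had a negative difference in upper molars and 5 in lower molars. Cspg4 differed by 0.08 and -0.20 and Anpep by -0.12 and -0.49. Their lower-jaw values after rescaling were 0.11 to 0.19 and -0.06 to -0.14. Rgs5 was at 5.96 FPKM in Msx1-/- upper against 11.8 FPKM in Msx1+/- upper molars and at 2.07 FPKM in Msx1-/- lower against 10.8 FPKM in Msx1+/- lower molars, and Notch3 at 6.19, 10.5, 6.4 and 8.47 FPKM in that order. The part of pericytes in the Acta2 difference was not tested.

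Most skeletal and cardiac muscle markers were below 1 FPKM, and 3 of 21 reached a mean of 1 FPKM. The 21 genes summed to 7.98 FPKM in Msx1-/- upper, 12.2 FPKM in Msx1+/- upper, 8.43 FPKM in Msx1-/- lower and 12.9 FPKM in Msx1+/- lower molars, 16 were below 1 FPKM in every library, Ckm was at 0 throughout, and Myod1 reached 0.0395 FPKM at most. The most abundant were Chrna1, at 1.90, 2.70, 1.52 and 2.43 FPKM in the same order, and the embryonic light chain gene Myl4, at 0.671 FPKM in Msx1-/- upper against 4.13 FPKM in Msx1+/- upper molars and at 0.821 FPKM in Msx1-/- lower against 4.07 FPKM in Msx1+/- lower molars. Of the 3 compared, Myl4 was counted as lower in both jaws, where 3.26% of all genes were in upper and 9.43% in lower molars. Myl4 reached the mean of 1 FPKM only through its Msx1+/- values, so nothing is read from this call.

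Endothelial markers (12 genes) summed to 59.3 FPKM in Msx1-/- upper against 72.1 FPKM in Msx1+/- upper molars and to 55.4 FPKM in Msx1-/- lower against 67.9 FPKM in Msx1+/- lower molars, with 1 counted, Egfl7, lower in upper molars (-1.15). Of all genes compared, 3.26% were lower in upper molars. Of the 11 endothelial genes compared, 7 had a negative difference in upper and 10 in lower molars. Their medians were -0.04 and -0.29, beside medians of all genes of -0.03 and -0.39. The adhesion gene Esam had differences of -0.23 and -0.82. Cdh5, a junction protein of endothelium, was at 16.5, 18.9, 17.4 and 18.1 FPKM in Msx1-/- upper, Msx1+/- upper, Msx1-/- lower and Msx1+/- lower molars. Epithelial markers (10 genes) summed to 48.5 FPKM in Msx1-/- upper against 27.9 FPKM in Msx1+/- upper molars and to 64.3 FPKM in Msx1-/- lower against 44.3 FPKM in Msx1+/- lower molars. Of the 6 compared, Krt5 and Krt15 were counted as higher in upper and Krt15 in lower molars, against 1.07% and 0.873% of all genes. After rescaling Krt5 was also counted as higher in lower molars, at 1.16 when scaled to one total, and so was Krt18 when scaled to one upper quartile (1.03) or one total. The epithelial part in the differences of the contractile genes was not tested. Krt5, the most abundant, was at 21.3, 7.18, 28.1 and 17 FPKM in the order just given, and Krt14 at 13.3, 8.69, 14.5 and 14.8 FPKM. Dental mesenchyme markers (10 genes) summed to 515 FPKM in Msx1-/- upper against 533 FPKM in Msx1+/- upper molars and to 363 FPKM in Msx1-/- lower against 464 FPKM in Msx1+/- lower molars. Of the 9 compared, Dlx2 was lower in both jaws (-1.87 and -3.28) and Dlx1 and Twist1 were lower in lower molars. Of all genes, 3.26% were lower in upper and 9.43% in lower molars. After rescaling Dlx2 kept the call, at -2.85 to -2.93, but Dlx1 (-0.55 to -0.64) and Twist1 (-0.79 to -0.88) did not. The list did not move as one, with 4 of the 9 differences negative in upper and 7 in lower molars. Pax9 had differences of 0.57 and 0.51. Its lower-jaw value was 0.92 to 1.01 after rescaling, and it was counted as higher there when scaled to one upper quartile only. Prrx1, the most abundant of the list, was at 163 FPKM in Msx1-/- upper and 130 FPKM in Msx1+/- upper molars, and at 117 FPKM in Msx1-/- lower and 136 FPKM in Msx1+/- lower molars.

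The genes with the profile closest to that of Acta2 over the 4 libraries were found by the distance between centred log2(FPKM + 1) profiles. They were Rpl26 at a distance of 0.495, Chodl at 0.526, Cbln2 at 0.558, Aspn at 0.689 and Gdf10 at 0.723, and a likeness over 4 libraries is a description only. Aspn, a small matrix proteoglycan gene, was at 17.4 FPKM in Msx1-/- upper against 6.18 FPKM in Msx1+/- upper molars and at 7.92 FPKM in Msx1-/- lower against 6.47 FPKM in Msx1+/- lower molars. Gdf10, which encodes a ligand of the Bmp family, was at 6.56 FPKM in Msx1-/- upper against 0.742 FPKM in Msx1+/- upper molars and at 3.03 FPKM in Msx1-/- lower against 1.92 FPKM in Msx1+/- lower molars. All 5 were counted as higher in upper molars, as closeness to Acta2 required, and none in lower molars. Cbln2 was at 4.98 FPKM in Msx1-/- upper against 0.177 FPKM in Msx1+/- upper molars. In lower molars it was at 0.91 FPKM in Msx1-/- and 0.282 FPKM in Msx1+/- molars. Cbln2 thus reached the mean of 1 FPKM only through the Msx1-/- upper library. Rpl26 encodes a ribosomal protein of which the genome holds near-identical copies, so its values are uncertain.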

How the data were processed

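RNA of 4 libraries, 1 per group, was analysed from the deposited tables. Per the labels' protocols, a Qiagen micro kit gave the RNA and NuGEN Ovation chemistry the cDNA. The submitters' processing notes name the mm9 build, Bowtie 0.12.7 and TopHat 1.4.1. For Cufflinks no version is given in the sources used. Per the file headers, every table deposited by the authors holds an FPKM value and a coverage signal for each of 28107 RefSeq transcript entries. The deposited coverage equalled FPKM times a constant within a library (0.812 to 1.09).

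Entries were summed per gene name. Genes with a failed estimate in any library (66) and genes with no entry of at least 200 bases (725) were left out, and a mean of at least 1 FPKM left 10536 genes. A pseudocount of 1 was added before taking log2. Coverage times length gave the bases behind a value. Whole reads could not be recovered from FPKM, so no counting interval is given. Start positions count from 0 in the tables, and 1 was added. The step that counts genes was tested on simulated data. Python 3.11.15, pandas 2.3.3, numpy 2.4.6 and matplotlib 3.10.9 were used.

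The members and the 9 gene lists (121 of 122 symbols matched) were chosen with earlier results of these data known. The genes named were the members and all regulators. From each pathway list came up to 4 genes with the largest mean genotype difference, and from each marker list the 2 most abundant and the 2 with the largest difference. The 5 genes closest to Acta2 were added. Other names (Actb, Acta1, Actc1, Cald1, Des, Lmod1, Kcnmb1, Myl12b, Myh9, Myh10, Pcsk7, Ckm, Myod1, Pdgfrb, Actn1, Twist1, Smtn, Krt18, Myl6, Myh14, Fhl1, Pax9, Cspg4, Anpep and the counted members of lists) were chosen after their values were seen. No test was made. Pseudocounts of 0.1 and 5, no filter, a stricter filter of 5 FPKM, 3 rescalings and the highest single entry per gene were the alternatives.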

Additional observations from a re-analysis of the deposited data

Results flagged for a closer look

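The genotype difference had opposite signs in the jaws for 2 of the 7 contractile genes compared. The Acta2 difference was 2.20 in upper molars and -0.18 in lower molars, and that of Tpm1 was 0.15 in upper molars and -0.13 in lower molars. Whether the jaws differ was not tested, because each difference rests on 1 library per group. After each of the 3 rescalings the lower-jaw values were positive for both genes, between 0.16 and 0.23 for Acta2 and between 0.29 and 0.38 for Tpm1, so the opposite signs were seen without rescaling only. The gap between the jaws was 2.38 for Acta2 and 0.28 for Tpm1.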

How the results depend on the processing

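Over 8 alternatives, 207 of 220 recomputed differences of the 7 contractile genes kept their side of the threshold, 13 crossed it and 0 of those counted changed sign. The number counted between genotypes in upper molars was 2, and 3 with a pseudocount of 0.1. In lower molars it was 2, and it was 1 with a pseudocount of 5, the filter of 5 FPKM, median of ratios, one upper quartile or one total, since Tagln was then not counted or not measured. In Msx1-/- molars the jaw count was 3, and 1 after each rescaling (median of ratios, one upper quartile and one total), and 2 with a pseudocount of 5. In Msx1+/- molars it was 0, and 1 with the highest single entry per gene, which added Tpm1 at 1.25. Counts over all genes moved too: lower genes in lower molars numbered 994, against 1708 with a pseudocount of 0.1, 320 with a pseudocount of 5 and 370 after median of ratios. After that rescaling 215 were higher there, against 92 on deposited values. In upper molars 113 were higher and 343 lower, against 40 and 140 with a pseudocount of 5 and 247 and 495 with a pseudocount of 0.1. Between jaws in Msx1-/- molars 339 were higher and 45 lower, against 790 and 89 with a pseudocount of 0.1 and 92 and 8 with a pseudocount of 5; in Msx1+/- molars 156 and 23, against 232 and 89 and 62 and 6. Without a filter Actg2, Cnn1 and Myh11 were compared and none was counted. Depth is limiting for these 3 genes. No paired analysis was possible because each group holds 1 library and the labels give no replicate numbers.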
